A study of Mus musculus with 6 samples.

Results

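The FoxO transcription factors and the muscle atrophy genes linked to them were examined as a group of 10 genes in gastrocnemius (Gas) muscle of mice without miR-92b. The genes were chosen by symbol: Foxo1, Foxo3, Foxo4, Trim63, Fbxo32, Fbxo30, Fbxo21, Gadd45a, Ctsl and Sesn1. All 10 were found among the 34714 gene symbols of the counts table, and all 10 were among the 15788 genes kept by the filter on low counts. The M92KO group comprised 3 mice with a global deletion of miR-92b (miR-92b-/-, a C57BL/6JGpt line from Gempharmatech). The study's methods name another source for the miR-92b-/- mice, the Animal Center of Nanjing University. The WT group comprised 3 C57BL/6 mice of the same age. All were untreated, 8 weeks old and, by the study's methods, male, and mRNA from each Gas was sequenced as 1 library. The deletion was present in every cell of the body, so the design does not separate an effect within muscle from one that reached it from another organ, and nothing in the sources used here says that the WT mice were littermates. Replicates are separate samples in the labels. The p-values set the difference between the groups against the spread among the 3 samples within each group.

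FoxO proteins are transcription factors that insulin and growth factors hold out of the nucleus through phosphorylation by Akt. When that signal falls, as in fasting, denervation or illness, they enter the nucleus and switch on genes for protein breakdown, including ubiquitin ligases that mark muscle proteins for the proteasome and lysosomal enzymes that serve autophagy. The ligases MuRF1 (Trim63) and atrogin-1 (Fbxo32) are the best-known markers of muscle that is losing mass.

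The deleted hairpin gives 2 mature miRNAs. They are shown because the seed, bases 2 to 8 from the 5′ end and here in capitals, is the stretch that pairs with target messages. Sequences are from RefSeq (GRCm38.p6).
miR-92b-3p: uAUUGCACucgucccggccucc
miR-92b-5p: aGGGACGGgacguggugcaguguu
The first maps to chr3:89227126-89227147 and the second to chr3:89227165-89227188, both on the minus strand. The seed of miR-92b-3p is shared with miR-25-3p, miR-32-5p, miR-363-3p, miR-367-3p and miR-92a-3p, which the deletion leaves in place, and that of miR-92b-5p with 0 other mature miRNAs of the table. The level of miR-92b itself was not analysed here, so the labels were not checked by the deleted gene.

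Matches to these seeds were counted by their length. In the longest annotated 3′ untranslated region of each gene, a match of 7 or 8 letters to the miR-92b-3p seed (GTGCAAT or TGCAATA) was found in 1 of 10, Foxo1, against 13.8% of 13663 tested genes. The full 8-letter match (GTGCAATA) was found in 0 of 10, against 2.74%. A match of 6 letters or more (TGCAAT) was found in Foxo1, Fbxo32, Ctsl and Sesn1, 4 of 10, against 26.1%. In Ctsl it lay in 1 of the 3 annotated regions only. A shorter annotated region of Foxo3, 1 of its 4, held a further match. No region of the 10 held a 6-letter match to miR-92b-5p (CGTCCC), against 9.54% of tested genes. The 5 sites are shown in the sense of the message, with the matching letters in capitals.
Foxo1: ccctgatgtgaagaaGTGCAAT
Foxo3: ggttagtgcgccacaaTGCAAT
Fbxo32: acaatgtacatatattTGCAAT
Ctsl: gtctctttgagactcaTGCAAT
Sesn1: agttattggatgatatTGCAAT
They lie at chr3:52350229-52350250, chr10:42196445-42196466, chr15:58180147-58180168, chr13:64360554-64360575 and chr10:41907955-41907976 (GRCm38), on the plus strand for Foxo1 and Sesn1 and on the minus strand for the others. The longest 3′ untranslated regions of Foxo1 (6240 bases), Fbxo32 (5587) and Ctsl (4761) are far longer than the median of 1187 bases over the tested genes. That of Sesn1 has 1066 bases. A match of letters is a description and not a shown binding site.

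Library totals were 38246649 to 48209846 counts in WT and 33160508 to 37019640 in M92KO, so the 3 smallest libraries were those of M92KO. Gene values are CPM, counts scaled to a common library size after TMM normalization. The detection floor of 3 counts, at the deposited totals, lay at 0.0622 to 0.0905 CPM and allows for counting error alone, and the lowest of the 60 values of the 10 genes rested on 505 counts. Library M92KO 1 stood apart from M92KO 2 and M92KO 3. When it was left out, genes with an adjusted p under 0.05 numbered 401 of 16058, against 0 of 15788 with all 6 libraries. Values of the 10 genes are therefore given with and without it.

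Most of the 10 genes had lower values in M92KO than in WT Gas, with WT means 1.00 to 1.28 times those of M92KO. Foxo1, the ligase gene Fbxo30 and the ligase gene Fbxo21 were lower at an unadjusted p under 0.05 (edgeR quasi-likelihood test), the threshold the study used. That was 3 of 10 genes, 30.0%, where 12.4% of all tested genes passed in either direction and 6.92% passed as lower. The count was 1 of 10 when counts were corrected for GC content and transcript length, without M92KO 3 and without WT 2, with Fbxo30 the 1 that passed each time. After adjustment over all genes (Benjamini-Hochberg), 0 of 10 passed, as did 0% of all tested genes, and the adjusted p of the 10 genes ranged from 0.261 to 0.996 in edgeR. With DESeq2, 322 genes passed after adjustment, and with limma, fitted to all 34714 symbols without the filter, 42 did. None of the 10 was among them. The same 3 genes were the ones whose M92KO values all lay below all WT values, 30.0% of the group against 9.58% of all tested genes for lower values and 18.4% for either direction. With counts corrected for GC content and transcript length, 2 of the 10 had groups that did not overlap. The fitted log2 fold change was below 0 in 9 of 10 genes, against 50.0% of all tested genes, and its median was -0.22, against 0.00 over all tested genes. These shares are descriptions of genes that share pathways and libraries.

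**Figure D1:**
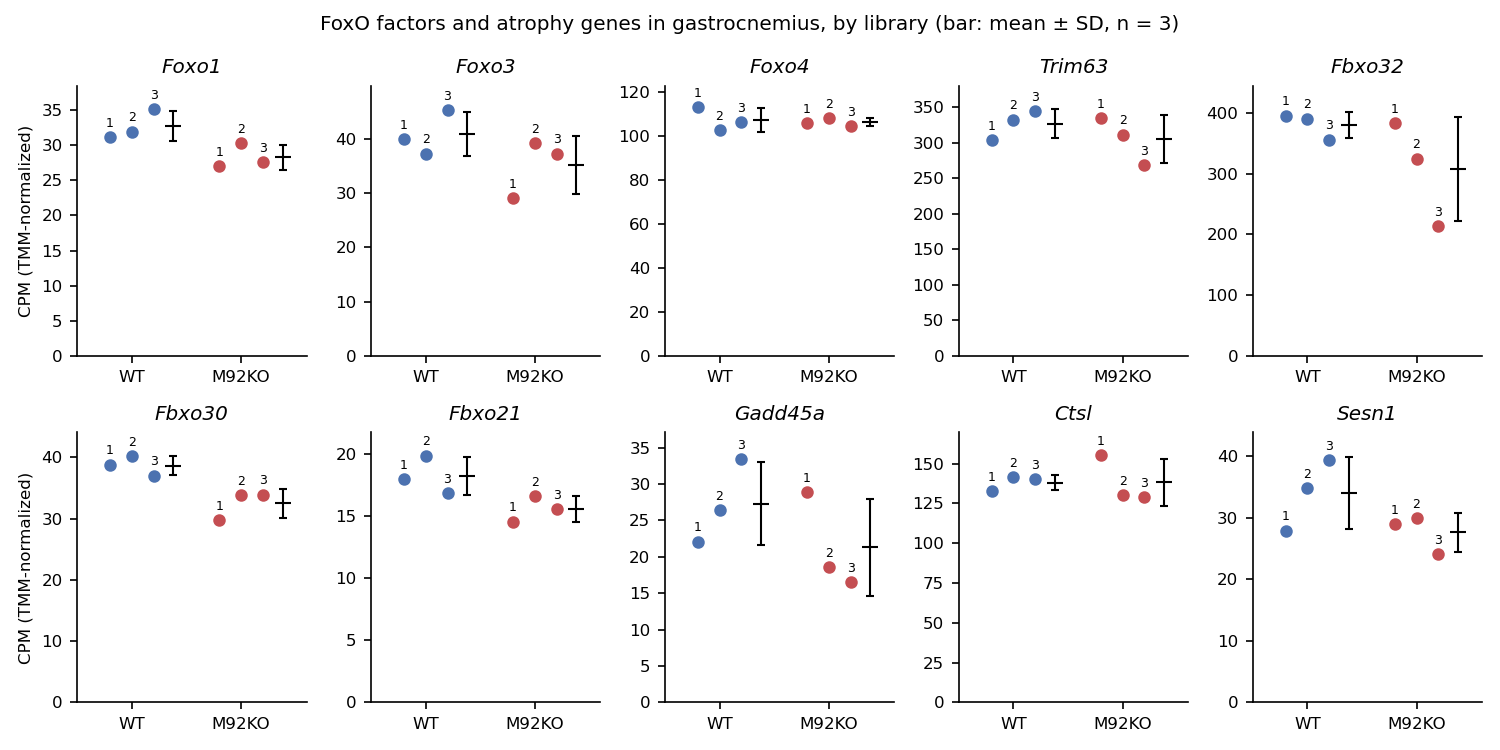
CPM (y axis, from 0) of each gene in the 3 WT and 3 M92KO libraries (points, numbered by replicate), with mean ± SD beside them. The M92KO points of Foxo1, Fbxo30 and Fbxo21 all lie below the WT points, while in the other 7 genes the groups overlap.

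Among the factors, Foxo1 (ENSMUSG00000044167, chr3:52268336-52353221, plus strand, GRCm38) was measured at 31.1, 31.9 and 35.2 CPM in WT and at 27.0, 30.3 and 27.6 CPM in M92KO libraries 1, 2 and 3. The groups did not overlap, although the gap between WT 1 and M92KO 2 was under 1 CPM. The log2 fold change was -0.21 ± 0.08 (SE, n = 3 per group; 95% interval -0.39 to -0.03), with an edgeR adjusted p of 0.352. Foxo1 encodes the family member known for control of fuel use as well as protein breakdown in muscle. With 1 library left out in turn, its log2 fold change stayed between -0.26 and -0.16 and passed an unadjusted p of 0.05 in 2 of 6 fits.

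Foxo3 (ENSMUSG00000048756, chr10:42181841-42276755, minus strand), the member best known for driving Fbxo32, stood at 39.9, 37.3 and 45.3 CPM in WT and at 29.1, 39.2 and 37.3 CPM in M92KO. Only M92KO 1 lay below the WT range. The log2 fold change of -0.21 ± 0.12 had a 95% interval of -0.49 to 0.06, and without M92KO 1 it was -0.09. Foxo4 (ENSMUSG00000042903, chrX:101254528-101260873, plus strand), a less studied member of the family, stood at 113, 103 and 106 CPM in WT and 106, 108 and 105 CPM in M92KO. Its groups overlapped throughout, and the interval of its log2 fold change, -0.01 ± 0.06, ran from -0.16 to 0.13.

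The 4 ubiquitin ligase genes all had log2 fold changes below 0 in every setting, and 2 of them passed an unadjusted p of 0.05. Trim63 (ENSMUSG00000028834, chr4:134315120-134329629, plus strand), which encodes MuRF1, a ligase of the sarcomere, stood at 304, 332 and 345 CPM in WT and 335, 311 and 269 CPM in M92KO. M92KO 3 was the lowest of all 6 libraries, and the groups otherwise overlapped. Its log2 fold change was -0.10 ± 0.09 (95% interval -0.32 to 0.12). Fbxo32 (ENSMUSG00000022358, chr15:58175879-58214932, minus strand), which encodes atrogin-1, stood at 395, 389.9 and 356 CPM in WT. In M92KO it stood at 382, 324 and 214 CPM. M92KO 1 thus lay inside the WT range and M92KO 2 and M92KO 3 below it. The log2 fold change was -0.31 ± 0.18 (95% interval -0.72 to 0.10), with an edgeR adjusted p of 0.545. Without M92KO 1 it was -0.50 ± 0.15 and without M92KO 3 it was -0.11.

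Fbxo30 and Fbxo21 encode the F-box subunits known in muscle as MUSA1 and SMART, which give substrate choice to SCF-type ubiquitin ligases. Fbxo30 (ENSMUSG00000047648, chr10:11281330-11298052, plus strand) stood at 38.8, 40.2 and 37.0 CPM in WT and at 29.7, 33.8 and 33.9 CPM in M92KO. The highest M92KO library lay below the lowest WT library. Its difference on the log2 scale was -0.25 ± 0.08 (95% interval -0.43 to -0.08; edgeR adjusted p = 0.261), a mean of 32.5 ± 2.39 CPM in M92KO against 38.7 ± 1.61 CPM in WT (SD, n = 3). Fbxo30 was the gene of the 10 that passed an unadjusted p of 0.05 in all 6 fits with a library left out and in all 9 other settings, with a log2 fold change between -0.28 and -0.19. Its adjusted p ranged from 0.164 to 0.643 over these edgeR, DESeq2 and limma fits.

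Fbxo21 (ENSMUSG00000032898, chr5:117976730-118010201, plus strand) was the lowest of the 4 ligases, at 18.0, 19.9 and 16.9 CPM in WT and 14.5, 16.6 and 15.6 CPM in M92KO. M92KO 2 and WT 3 were within 1 CPM of each other. The log2 fold change was -0.23 ± 0.10 (95% interval -0.45 to -0.01; edgeR adjusted p = 0.389), and it passed an unadjusted p of 0.05 in 2 of 6 fits with a library left out. Fbxo21 passed in 5 of the 9 other settings, but not with DESeq2's own test, with limma or with GC and length offsets. Two-sided exact permutation tests of 3 against 3 values cannot give a p below 0.1, which was the value for Foxo1, Fbxo30 and Fbxo21.

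The remaining genes act beside the ligases. Gadd45a (ENSMUSG00000036390, chr6:67035096-67037457, minus strand), a stress-response gene that is known to rise in denervated muscle, stood at 22.1, 26.4 and 33.4 CPM in WT and 28.9, 18.5 and 16.5 CPM in M92KO. M92KO 1 lay within the WT range and the other M92KO libraries below it. For Gadd45a the log2 fold change was -0.36 ± 0.22 (95% interval -0.86 to 0.14), the widest interval of the 10. Without M92KO 1 it was -0.64 ± 0.16, with an edgeR adjusted p of 0.0883. Gadd45a and Fbxo32 passed an unadjusted p of 0.05 in that fit, as did Fbxo30, which was 3 of 10 genes against 18.6% of all genes then tested. After adjustment 0 of 10 passed, against 2.5% of all genes. In the same fit the log2 fold change was -0.18 for Foxo1, -0.01 for Foxo4, -0.17 for Trim63, -0.19 for Fbxo30, -0.18 for Fbxo21, -0.09 for Ctsl and -0.34 for Sesn1.

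Sesn1 (ENSMUSG00000038332, chr10:41809935-41908424, plus strand), which encodes sestrin 1, a restraint on mTORC1 signalling, stood at 27.9, 34.8 and 39.4 CPM in WT and 28.9, 29.9 and 24.0 CPM in M92KO. WT 1 was the lowest WT library and lay among the M92KO values. For Sesn1 the log2 fold change was -0.30 ± 0.13 (95% interval -0.61 to 0.01; edgeR adjusted p = 0.415), and it was -0.43 without WT 1. Ctsl (ENSMUSG00000021477, chr13:64359337-64370890, minus strand), the lysosomal protease cathepsin L, stood at 133, 141 and 140.1 CPM in WT and 155, 130.3 and 129 CPM in M92KO. M92KO 1 was above every WT library and the other M92KO libraries were below every one. Its log2 fold change was 0.00 ± 0.09 (95% interval -0.20 to 0.20), a mean of 138 CPM in both groups, and its sign depended on the setting.

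**Figure D2:**
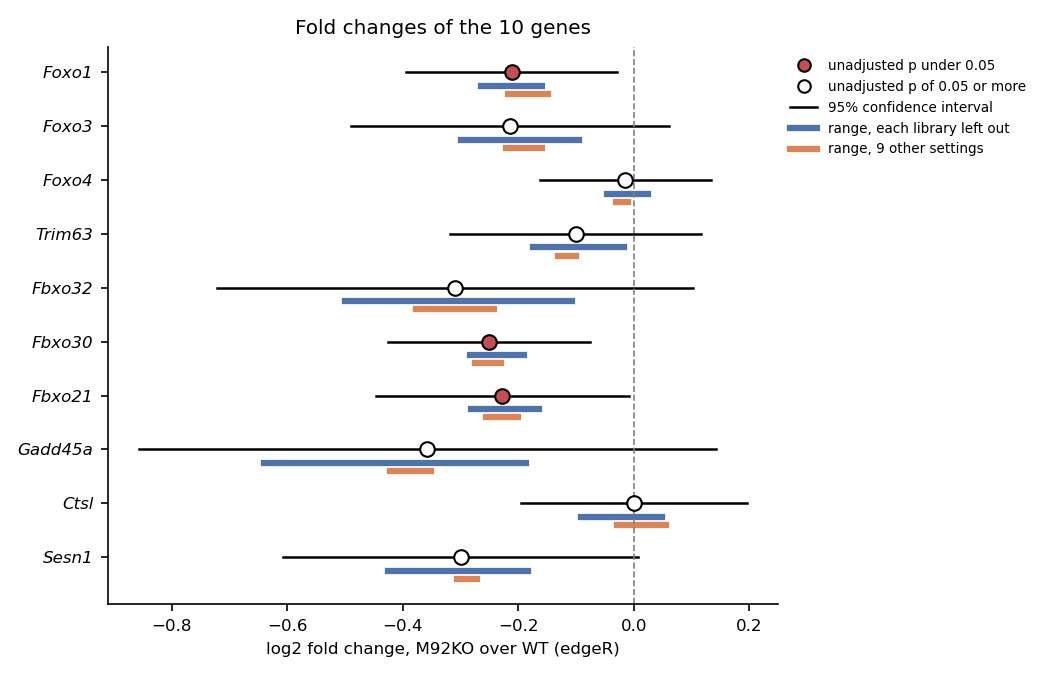
Log2 fold change of M92KO over WT (x axis) for the 10 genes, with the 95% interval (black line), the range over fits that leave out 1 library (blue) and the range over 9 other settings (orange). Filled points mark an unadjusted p under 0.05: the intervals of Foxo1, Fbxo30 and Fbxo21 stop short of 0, and the blue ranges of Fbxo32 and Gadd45a are the longest.

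The spread within M92KO differed between the genes. In Fbxo32 the highest M92KO library was 1.79 times the lowest, a ratio reached by 2.22% of the 8745 genes with a mean above 10 CPM, where the median ratio was 1.17. In WT the same ratio for Fbxo32 was 1.11. Gadd45a had a ratio of 1.75 in M92KO and 1.51 in WT, reached by 2.52% and 2.44% of those genes. Sesn1 had a ratio of 1.41 in WT and 1.24 in M92KO. Foxo4, by contrast, had a ratio of 1.03 in M92KO, which 96.3% of those genes reached or exceeded. Trim63, Fbxo32, Gadd45a and Ctsl shared an order of the M92KO libraries, with M92KO 1 highest and M92KO 3 lowest. Foxo1, Foxo3, Fbxo30 and Fbxo21 were instead lowest in M92KO 1. The order falling from M92KO 1 to M92KO 3 was also that of 4 of 10 muscle fibre markers, and its share over all genes was not counted.

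**Figure D3:**
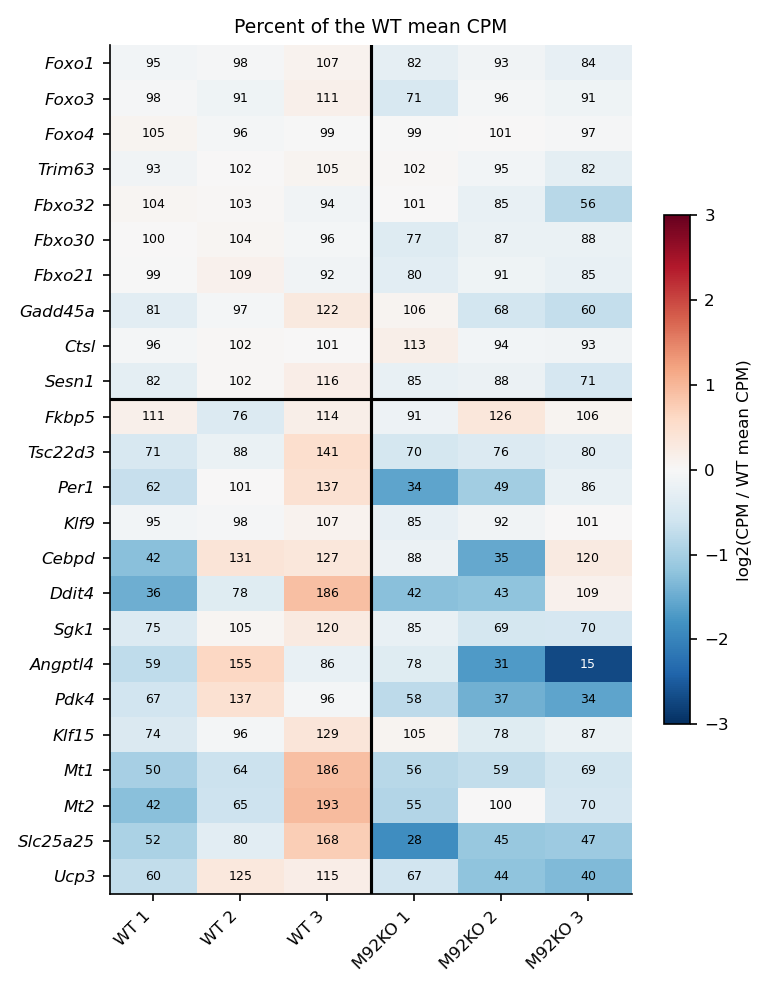
CPM in each library as a percent of the WT mean (numbers, colour on a log2 scale) for the 10 genes (above the line) and 14 glucocorticoid and fasting genes (below it). Fbxo32 reads 101, 85 and 56 percent and Gadd45a 106, 68 and 60 percent in M92KO 1, 2 and 3, while Foxo4 stays between 97 and 101 percent.

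Per length, the highest WT level among the 10 genes was 45.9 times the lowest. On the scale of CPM per kb of the principal annotated transcript, WT levels were 173 ± 11.1 for Trim63, 70.1 ± 2.34 for Ctsl, 54.5 ± 3.07 for Fbxo32 and 33.9 ± 1.67 for Foxo4 (SD, n = 3). Levels per kb were 22.3 ± 4.68 for Gadd45a, 13.1 ± 2.22 for Sesn1, 7.64 ± 0.317 for Fbxo30, 5.96 ± 0.593 for Foxo3, 4.61 ± 0.381 for Fbxo21 and 3.78 ± 0.247 for Foxo1. No 2 neighbours in this order overlapped in WT. In M92KO the ranges of Fbxo32 (30.6 to 54.8 CPM per kb) and Foxo4 (33.1 to 34.2) did overlap. Transcript choice matters for Ctsl, whose longest annotated transcript has 6168 bases against 1971 for the one used.

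**Figure D4:**
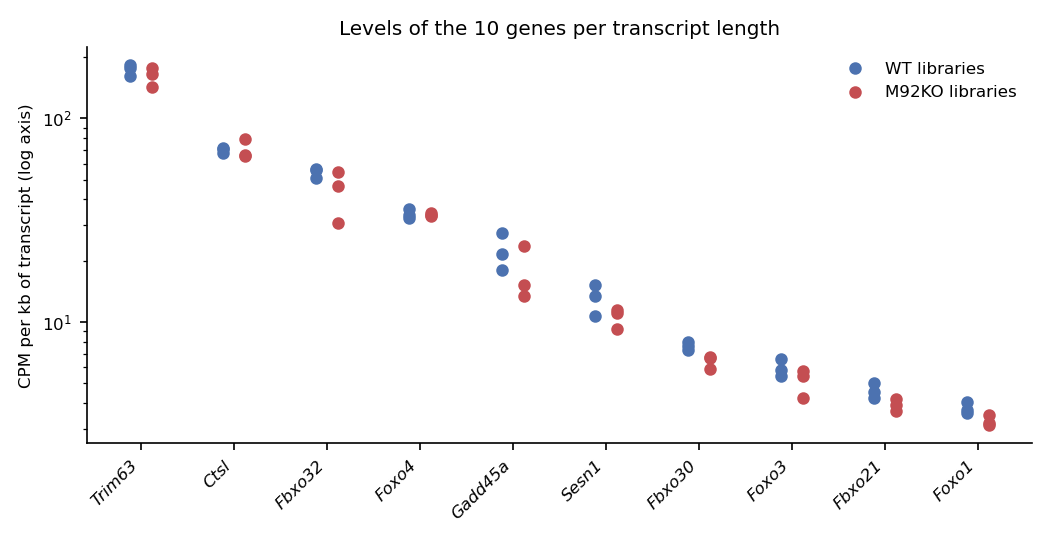
Level in CPM per kb of transcript (y axis, log scale) of the 10 genes in WT (blue) and M92KO (red) libraries, ordered by the WT mean. Trim63 is highest at 173 and Foxo1 lowest at 3.78, and Fbxo32 in M92KO reaches down to the level of Foxo4.

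The counting program and its use of strand are not given in the sources used here, so reads of overlapping genes may not be separated. Exons of Foxo1 overlap those of the antisense gene Gm20402 over 674 bases, of Fbxo32 those of Gm15943 over 186 bases and of Gadd45a those of E230016M11Rik over 337 bases. Exons of Ctsl overlap those of the antisense gene Gm47123 over 1742 bases and of the pseudogene Gm49230 over 395 bases. The longest transcripts of the 10 genes had a median of 4509.5 bases, against 3301 for tested genes and 4121.5 for all genes lower at an unadjusted p under 0.05. With each library corrected for trends with GC content and transcript length, Fbxo30 alone of the 10 passed an unadjusted p of 0.05, at a log2 fold change of -0.23, while Foxo1 stood at -0.15 and Fbxo21 at -0.20.

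The promoter windows of RefSeq, 250 bases before to 50 after each start, were searched on both strands for the FoxO core motif GTAAACA (reverse complement TGTTTAC). Windows were given for 8 of the 10 genes, with Foxo4 and Fbxo32 not among them, and 2 of their 9 windows held the motif, against 3.65% of 32851 windows of all genes. These 2 are shown with the motif in capitals, in the direction of the gene.
Trim63: cagtctgttctTGTTTACgacccccacgg
Sesn1: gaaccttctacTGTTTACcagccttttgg
The match in Trim63 starts 194 bases before the annotated start and that in Sesn1 22 bases past one (chr4:134314926-134314932 and chr10:41810596-41810602, GRCm38.p6). Both genes had overlapping groups, with log2 fold changes of -0.10 and -0.30. A match of letters does not show that a factor binds.

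Other genes of the pathway moved in both directions. Among 25 further FoxO-linked genes, an unadjusted p under 0.05 was reached by 1 with higher and 4 with lower values, with a median log2 fold change of -0.04. The shares of all tested genes at this threshold were 12.4% in either direction and 6.92% as lower. Bnip3, a mitophagy receptor, was higher: 226, 241 and 238 CPM in WT and 319, 308 and 333 CPM in M92KO, a log2 fold change of 0.45 ± 0.07 (edgeR adjusted p = 0.165). Foxo6 was lower at 8.84, 8.18 and 9.69 CPM in M92KO against 12.8, 11.6 and 14.6 CPM in WT, a log2 fold change of -0.54 ± 0.12. Pdk4, which restrains the use of glucose by mitochondria, was lower at 754, 481 and 435 CPM against 864, 1775 and 1251 CPM, a log2 fold change of -1.22 ± 0.28. Both had no overlap between groups. Ulk1, the kinase that starts autophagy, was lower by a log2 fold change of -0.25, and the cell cycle inhibitor Cdkn1a by -0.82 with overlapping groups. The other 20 did not pass. With a library left out, the count of lower genes ranged from 2 (without M92KO 2 or WT 3) to 6 (without WT 1) and that of higher genes from 1 to 3, and 2 were lower with limma. After adjustment, DESeq2 called Bnip3 and Foxo6 and edgeR called 0 of 25.

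Of 22 other ubiquitin ligases and ligase subunits studied in muscle, 2 with higher and 0 with lower values passed an unadjusted p of 0.05, where 12.4% of all tested genes passed in either direction. The median log2 fold change was -0.01, and it was below 0 in 12 of the 22. Trim54 encodes MuRF3, a close relative of MuRF1. It was measured at 302, 297 and 307 CPM in WT and 395, 336 and 361 CPM in M92KO, a log2 fold change of 0.27 ± 0.08. Fbxo40, a muscle F-box protein that targets Irs1, had a log2 fold change of 0.35 ± 0.14, with M92KO 1 (538 CPM) inside the WT range (507 to 583 CPM) and M92KO 2 and M92KO 3 at 755 and 792 CPM. Stub1 had no overlap between groups but did not pass (log2 fold change 0.17 ± 0.08). The sign in Trim54 and Fbxo40, though not in the list as a whole, was opposite to that of Fbxo30 and Fbxo21. The difference between these genes was not tested. With a library left out, the count of higher genes ranged from 1 to 3 and that of lower genes from 0 to 2. The count of higher genes was 0 with limma and 1 with the replicate block (the replicate number as a term of the fit). After adjustment, edgeR, DESeq2 and limma each called 0 of 22.

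Of 22 genes listed for proteins that act on FoxO factors, 2 were higher and 1 was lower at an unadjusted p under 0.05. Their median log2 fold change was -0.08, and 12.4% of all tested genes passed in either direction. The arginine methyltransferase gene Prmt1, known to act on FoxO1, was higher by 0.31 ± 0.08, and Psmd4, which encodes a ubiquitin receptor of the proteasome, by 0.21 ± 0.07. Sgk1, a kinase that phosphorylates FoxO3, was lower by a log2 fold change of -0.42 ± 0.16 with overlapping groups. Akt1 and Akt2 were among the 19 that did not pass. After adjustment, DESeq2 called Prmt1, and edgeR and limma each called 0 of 22. Without M92KO 1 the counts at an unadjusted p under 0.05 were 4 higher and 3 lower, where 18.6% of all genes then tested passed. The count of higher genes was 1 without WT 1, with limma and with the replicate block, and that of lower genes was 0 without M92KO 2, M92KO 3 or WT 3 and with the replicate block, and 2 with limma.

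Of 24 other proteases and genes known from wasting muscle, 5 with higher values and 1 with lower values passed an unadjusted p of 0.05, and the median log2 fold change was 0.01. In either direction 12.4% of all tested genes passed. Tnfrsf12a, the receptor of the cytokine TWEAK, was higher, at 33.3, 15.1 and 21.04 CPM in WT and 40.8, 94.7 and 119 CPM in M92KO, a log2 fold change of 1.87 ± 0.40. M92KO 2 and M92KO 3 carried most of that difference. Cast, the inhibitor of calpains, was higher by 0.36 ± 0.13, and the lysosomal and calpain protease genes Ctsa, Capn2 and Ctsd by 0.18, 0.19 and 0.16. Hdac4, a deacetylase known to rise on denervation, was lower at 49.6, 53.4 and 49.5 CPM against 65.6, 65.2 and 70.2 CPM, a log2 fold change of -0.40 ± 0.07. DESeq2 called Hdac4 and Tnfrsf12a after adjustment. With a library left out, the count of higher genes ranged from 2 (without M92KO 3, WT 1 or WT 3) to 7 (without M92KO 1), and it was 2 with limma and 2 with the replicate block.

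Glucocorticoids and fasting are known to raise Trim63 and Fbxo32, and 14 other genes known to rise with them were examined. At an unadjusted p under 0.05, 0 of these were higher and 6 lower (Pdk4, Sgk1, Slc25a25, Angptl4, Ucp3 and Per1), and the median log2 fold change of the 14 was -0.53. As lower, 6.92% of all tested genes passed. The count of lower genes ranged from 3 (without M92KO 2, WT 2 or WT 3) to 8 (without WT 1) with a library left out and was 1 with limma, and edgeR, DESeq2 and limma each called 0 of 14 after adjustment. Angptl4, a lipoprotein lipase inhibitor, stood at 5.93, 15.5 and 8.57 CPM in WT and 7.80, 3.08 and 1.54 CPM in M92KO. Ucp3, a mitochondrial carrier that rises in fasting, stood at 201, 417 and 384 CPM in WT and 223, 146 and 133 CPM in M92KO. Of the 14 genes, 3 (Pdk4, Ucp3 and Angptl4) ranked the M92KO libraries as Fbxo32, Gadd45a, Trim63 and Ctsl did, with M92KO 1 highest and M92KO 3 lowest, and 6 (Tsc22d3, Per1, Klf9, Ddit4, Mt1 and Slc25a25) ranked them in the reverse order. Slc25a25, a mitochondrial carrier for ATP, and Per1 are examples of the reverse order. In M92KO 1, 2 and 3, Slc25a25 stood at 110.1, 181 and 189 CPM, below its WT range of 208 to 669 CPM. Per1 stood at 41.8, 60.7 and 107 CPM, with M92KO 3 inside its WT range of 77.5 to 171 CPM. Pdk4 and Slc25a25 were lower without overlap between groups, 2 of the 14, against 9.58% of all tested genes. Groups overlapped in Sgk1, Angptl4, Ucp3 and Per1. In the study's supplementary methods, a passage on treated mice has all animals fasted overnight before tissue was taken, and whether it covers the untreated mice is not stated there. The part of fasting state or hormone levels in the values of the 10 genes was not tested.

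Markers of other cells were measured because fewer cells of a type and less RNA per cell cannot be told apart in whole muscle. The 10 fibre markers summed to 115408 to 127492 CPM in WT and 117292 to 124850 CPM in M92KO, and 1 passed as higher, Myh2, the myosin of fast oxidative fibres (2124, 2239 and 1612 CPM in WT, 2018, 3575 and 4099 CPM in M92KO). Fibroblast markers were lower in 2 of 5 (Dcn and Col1a1), with sums of 1373 to 1741 CPM in WT and 906 to 1290.5 CPM in M92KO. Tendon markers were lower in 3 of 5 (Tnmd, Scx and Fmod), with sums of 99.2 to 124 and 92.7 to 113 CPM, and Schwann cell markers in 2 of 4 (Mbp and Pmp22), with sums of 80.2 to 100.2 and 77.4 to 78.8 CPM. Endothelial markers were lower in 1 of 5 (Tie1; sums 832 to 895 and 725 to 906 CPM) and macrophage markers in 1 of 5 (Ptprc; sums 35.6 to 38.9 and 28.0 to 37.2 CPM). Satellite cell markers were higher in 1 of 5 (Pax7) and lower in 2 of 5 (Chodl and Calcr), with sums of 38.7 to 44.4 and 37.6 to 40.0 CPM. Of 4 tested fat cell markers and 5 red cell markers, 0 passed in edgeR, with sums of 3.86 to 10.8 and 6.83 to 19.5 CPM and of 74.0 to 223 and 143 to 336 CPM. After adjustment, DESeq2 called the markers Dcn, Chodl and Tnmd, and edgeR and limma called 0 markers. With all 6 libraries, 12.4% of all tested genes passed in either direction and 6.92% as lower. The marker counts moved with a library left out. Without M92KO 2 they were 4 lower endothelial, 4 lower fibroblast, 1 lower tendon, 1 lower Schwann cell, 0 lower macrophage and 3 higher red cell markers. Tendon markers numbered 1 also without M92KO 3, WT 1 or WT 2, and Schwann cell markers 0 without WT 1 or WT 2 and 1 without M92KO 1 or M92KO 3. Fibroblast markers numbered 1 without M92KO 1 or WT 1, and Ptprc did not pass without WT 2 or WT 3. Myh2 did not pass without M92KO 2, M92KO 3 or WT 3. A higher fat cell marker was counted without M92KO 3 (1) and WT 3 (2), and without M92KO 1 a macrophage marker was higher and a fibre marker lower. The fat cell marker Lep, with 0 to 6 counts in a library, was not tested, and every other marker was above the floor of 3 counts in all 6 libraries. Foxo1, Fbxo30 and Fbxo21 are expressed in many cell types, and the part of these cells in their values was not tested.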

How the data were processed

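Gas libraries of 3 WT and 3 M92KO mice were used, with groups taken from the labels. The authors deposited raw counts of reads per gene symbol. RNA was extracted with an RNeasy kit and libraries were made with a SMARTer kit, per the labels. The submitters' processing notes name GRCm38 (mm10). The aligner and the counting program are not given in the sources used here.

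In R 4.3.3, edgeR 4.0.16 was applied to the counts: filterByExpr (minimum count 10, minimum total count 15), TMM normalization, and the quasi-likelihood test of M92KO against WT without a covariate, with Benjamini-Hochberg adjustment over 15788 genes. Values are TMM-normalized CPM. Alternatives were DESeq2 1.42.0 (size factors, and its own test), limma 3.58.1 after quantile normalization and log2(count + 1), no filter, at least 10 counts in every library, a replicate block, offsets for GC content and length (known for 93.4% of tested genes), thinning to the smallest total, and leaving out each library. The limma fit and its adjustment took all 34714 symbols, without the filter on low counts. GENCODE M21 gave positions, transcripts and 3′ untranslated regions (26163 of 34714 symbols matched, 424 by a synonym), and the longest region of each gene was searched for seed matches.

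The 10 genes and the 15 lists of related genes and markers were chosen with earlier results of these data known. All 10 genes were named, and of each list the 3 with the smallest p and any gene a count of 5 or fewer required. The 6 lower glucocorticoid and fasting genes were named in full after their values were seen. A glucocorticoid or fasting gene and a Schwann cell marker are not reported here and are left out of their lists. The lists share genes: Pdk4 and Klf15 stand in the FoxO-linked and fasting lists, Sgk1 in the modifier and fasting lists, Mt1 and Mt2 in the atrophy and fasting lists, and Per1 in the fasting and clock lists.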

Additional observations from a re-analysis of the deposited data

How the results depend on the processing

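The log2 fold changes of Foxo1, Foxo3, Trim63, Fbxo32, Fbxo30, Fbxo21, Gadd45a and Sesn1 stayed below 0 in all 15 alternative fits. Ctsl turned negative without a filter (-0.0045), with 10 counts in every library (-0.00023), with limma (-0.030), with thinned libraries (-0.0024) and with the replicate block (-0.0038). With a library left out, Ctsl ranged from -0.092 to 0.049 and Foxo4 from -0.046 to 0.024. The number of the 10 genes past an unadjusted p of 0.05 was 1 with GC and length offsets, 1 with these offsets and the replicate block, and 1 to 3 with a library left out (1 without M92KO 3 or WT 2, Fbxo30 each time). It was 2 with limma (Foxo1 and Fbxo30), 3 with DESeq2's own test (Foxo1, Fbxo30 and Sesn1) and 4 without a filter (Sesn1 added). The median of the 10 ranged from -0.27 to -0.17 with a library left out. Over all genes, 1222 to 2984 passed an unadjusted p of 0.05 with a library left out, against 1955. Deviations of log2 CPM from the group mean were correlated between WT and M92KO libraries. Same-numbered libraries gave 0.0148 to 0.0742 and differently numbered ones -0.0599 to 0.0301. All these values were small, so the numbers are not taken to pair the samples. The replicate block gave 1691 genes, 2 of them after adjustment, and 4 of the 10 (Fbxo32 added). For other results, 485 alternatives kept the direction and call, or for counts a value within 1.5 times, 90 counts moved beyond that, 14 calls of a gene were lost and 6 gained.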

Other observations

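Of 15 clock genes, whose levels follow the time of day, 4 were higher and 1 was lower in M92KO at an unadjusted p under 0.05 in edgeR, with a median log2 fold change of 0.03. In either direction 12.4% of all tested genes passed. The higher count was 3 without M92KO 2, 2 without M92KO 3 or WT 3, 1 without WT 1 and 1 with limma, and the lower count was 0 without M92KO 1, M92KO 2 or WT 3, with DESeq2, with limma and with GC and length offsets, and 2 without a filter. Nr1d1 stood at 173, 189 and 170.0 CPM in WT and 288, 214 and 205 CPM in M92KO, without overlap. Dbp stood at 49.1, 68.0 and 51.1 CPM in WT and 119, 63.7 and 82.2 CPM in M92KO. After adjustment, DESeq2 called Dbp, and edgeR and limma each called 0 of 15. Cry2 (log2 fold change 0.27) and Bhlhe41 (0.24) were the other higher ones, and Per1 (-0.84), also a glucocorticoid target, was the lower one. Clock and hormone rhythms are known to act on Trim63 and Fbxo32, and the part of the time of day in the values of the 10 genes was not tested.

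M92KO 1 also differed from M92KO 2 and M92KO 3 in fibre and wasting genes outside the 10. Myh1 stood at 9664, 15781 and 16778 CPM and Cast at 132, 191 and 181 CPM in M92KO 1, 2 and 3, against WT ranges of 14346 to 17205 and 129.9 to 133 CPM.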
